A study of Mus musculus with 6 samples.

Results

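The genes of the SR splicing factors were examined here for H3K79me2, dimethylation of lysine 79 of histone H3, in the established mouse neuroblastoma line N2a. The members were Srsf1, Srsf2, Srsf3, Srsf4, Srsf5, Srsf6, Srsf7, Srsf9, Srsf10 and Srsf11, 10 of 21938 protein-coding genes and of 55413 annotated genes, and they were chosen by name. For each member, the MACS2 peaks over the gene body and the 3 kb upstream of its start were collected (the gene window), with GENCODE M21 genes on mm10. Chromatin immunoprecipitation sequencing (ChIP-seq) had been done on cells carrying a pLKO.1 plasmid with a control short hairpin RNA (CTR, 2 libraries) or with a hairpin against Npm1 (NPM1 KD, 2 libraries). Both groups were transfected N2a cells of the same line, taken at 3 days in vitro after 72 h, and puromycin at 9.3 µg/ml was applied from 24 h after transfection. A single hairpin sequence represented the knockdown, so other targets of that hairpin cannot be told apart from the loss of Npm1. The replicates were described as separate passages with separate transfections. Peak lists hold no RNA or protein, so the level of Npm1 itself was not checked here. There was also no spike-in, so a change of the mark common to the whole genome would not appear in the fold values.

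SR proteins carry RNA recognition motifs and a domain rich in arginine and serine. They bind exonic enhancers, recruit the U1 and U2 particles to splice sites, and several accompany the spliced RNA to the cytoplasm. Many of their genes control their own output through alternative splicing, often of exons whose inclusion brings a premature stop codon. Such transcripts are sent to nonsense-mediated decay. H3K79me2 is laid down by the methyltransferase DOT1L, is typical of the first kilobases of transcribed genes, and is removed slowly. The question put to these genes was where the mark lay along them and whether its extent or height differed between CTR and NPM1 KD.

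The 4 libraries showed the marks of the labelled line in part. Of 18 neuronal and neuroblastoma markers, 13 lay under broad peaks in all 4 libraries, Ddc in some, and markers such as Dbh, Nefl and Nefm in none. The median share of a marker window covered in this list was 74.0% to 76.2% per library. Among the 13, Th (2.1% to 9.87%) and Map2 (5.16% to 6.5%) were covered only in small part. Of 20 markers of other cell types, 18 lay under no broad peak at all, and the highest share of a marker window covered was 2.42%. The background pileup at the peaks, which follows depth, was 11.9 and 7.65 for the control libraries 1 and 2 and 8.99 and 11.8 for the knockdown libraries 1 and 2. Values below keep this order of the 4 libraries. The median over genes of the highest narrow fold was 14.0, 13.4, 14.1 and 12.1, so NPM1 KD 2 had the flattest peaks over genes.

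The members lie on 7 chromosomes and span 3194 bp (Srsf2) to 28090 bp (Srsf4). GENCODE lists 85 transcripts for them, 15 of which are annotated as nonsense-mediated decay transcripts, in 9 of the 10 genes (Srsf10 has none). Another gene overlaps 8 of the 10 windows, and ChIP-seq does not separate strands, so a peak there belongs to the position and not to the SR gene alone. The exceptions are Srsf6 and Srsf9. The 5′ ends of Srsf2 and the opposite gene Mfsd11 overlap, with the start of Mfsd11 654 bp inside Srsf2. Srsf7 and Ttc39d lie on opposite strands with starts 153 bp apart, and Srsf11 and Lrrc40 with starts 23 bp apart.

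Promoter sequences were matched for 10 of 10 members in RefSeq (GRCm38.p6, 250 bases before to 50 after the start). They are printed here for the 4 genes at which narrow peaks broke off at or just before the start in all 4 libraries. The edge of a narrow peak falls within each of these sequences. The broad peaks of Srsf5 and Srsf7 ran on across the start in all 4 libraries. Each line gives 250 bases before the RefSeq start and 30 after it, 5′ to 3′ along the gene, and the capitals mark bases that lay under no narrow peak in any of the 4 libraries.
Srsf1 (chr11:88047123-88047402, + strand): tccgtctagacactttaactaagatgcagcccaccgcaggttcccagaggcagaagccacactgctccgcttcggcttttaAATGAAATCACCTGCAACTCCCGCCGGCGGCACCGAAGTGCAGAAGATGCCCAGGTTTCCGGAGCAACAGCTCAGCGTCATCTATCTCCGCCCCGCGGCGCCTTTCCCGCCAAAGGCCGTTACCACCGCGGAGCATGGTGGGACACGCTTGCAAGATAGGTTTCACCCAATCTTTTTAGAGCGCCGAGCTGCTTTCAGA
Srsf5 (chr12:80945249-80945528, + strand): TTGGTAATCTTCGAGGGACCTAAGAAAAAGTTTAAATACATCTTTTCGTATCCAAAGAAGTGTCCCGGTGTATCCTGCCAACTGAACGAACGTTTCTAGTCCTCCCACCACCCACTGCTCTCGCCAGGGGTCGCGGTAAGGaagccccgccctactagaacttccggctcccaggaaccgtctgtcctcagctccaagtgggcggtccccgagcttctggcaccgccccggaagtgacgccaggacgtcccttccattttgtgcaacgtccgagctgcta
Srsf6 (chr2:162931258-162931537, + strand): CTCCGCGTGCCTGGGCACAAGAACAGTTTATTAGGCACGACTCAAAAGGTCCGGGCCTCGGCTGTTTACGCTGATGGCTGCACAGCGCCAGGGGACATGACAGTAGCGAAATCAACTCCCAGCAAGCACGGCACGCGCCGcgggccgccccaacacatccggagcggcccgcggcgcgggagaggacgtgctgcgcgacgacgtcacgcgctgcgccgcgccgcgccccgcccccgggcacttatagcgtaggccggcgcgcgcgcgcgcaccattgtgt
Srsf7 (chr17:80207276-80207555, - strand): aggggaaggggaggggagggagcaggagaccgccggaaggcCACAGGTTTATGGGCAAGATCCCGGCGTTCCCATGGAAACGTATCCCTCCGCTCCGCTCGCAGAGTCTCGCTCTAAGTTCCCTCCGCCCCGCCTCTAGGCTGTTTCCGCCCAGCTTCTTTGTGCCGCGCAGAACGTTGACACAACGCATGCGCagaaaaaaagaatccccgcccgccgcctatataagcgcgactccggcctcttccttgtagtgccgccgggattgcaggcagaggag
In Srsf1, 199 of the 280 bases, the start included, lay under no narrow peak in any library. In Srsf5 the bare stretch was the distal 141 bases, in Srsf6 the distal 140 bases, and in Srsf7 a block of 153 bases that ends before the start.

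The promoters shared a high content of G and C. Over the 300 bases, the median of the 10 members was 68.7% G and C with 35.0 CpG dinucleotides, against 52.7% and 7.0 over the 32851 promoters in the table. The lowest member was Srsf5 with 56.0% and the highest Srsf4 with 77.7%. Short motifs were searched on both strands. The GC box GGGCGG was present in 9 of 10 members (all but Srsf3) and in 35.7% of all promoters. The ETS core CCGGAAG was present in 4 members (Srsf4, Srsf5, Srsf7 and Srsf11) and in 8.86% of all promoters. The letters CCAAT occurred in 4 members and 37.4% of all promoters, TATAAA in 2 members (Srsf2 and Srsf3) and 13.6%, and GCATGCGC, an NRF1 motif, in Srsf7 alone and 2.71%. The letters CACGTG, TGACGTCA and AAGATGGC occurred in no member and in 7.15%, 1.79% and 2.75% of all promoters. These counts describe letters in a window and no factor was measured.

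Broad peaks covered 100% of the gene body in all 4 libraries for Srsf2, Srsf3, Srsf5, Srsf6, Srsf7, Srsf9 and Srsf10, which was so for 7.67% of the 11318 genes tested. These members are 3.19 to 14.2 kb long, and the share over all genes was not split by gene length. The body of Srsf1 was covered at 96.8% to 100%, that of Srsf4 at 89.3% to 100% and that of Srsf11 at 76.3% to 87.6%. Over the whole window, the lowest coverage among the members was 65.4% (Srsf6, NPM1 KD 2), whereas the median over the protein-coding genes with the mark (mean covered length of at least 500 bp) was 45.4% to 53.6% per library. The windows of Srsf2 and Srsf9 were covered at 100% in every library. Srsf2 (SC35) and Srsf9 (SRp30c) are both splicing regulators of the family.

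**Figure D1:**
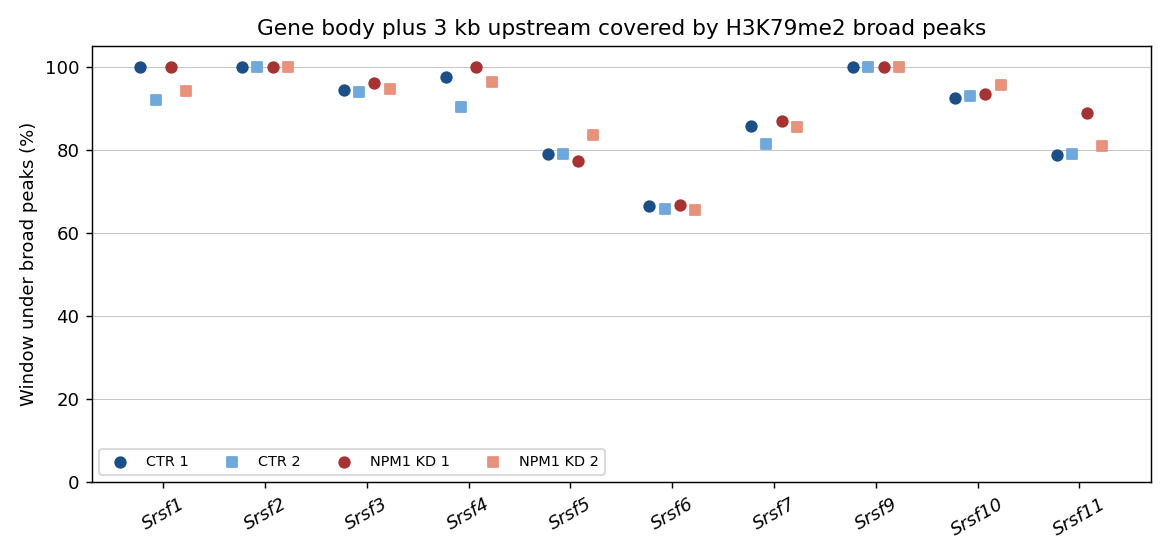
Share of each gene window (body plus 3 kb upstream, in percent) under broad H3K79me2 peaks, with 1 point per library (CTR 1, CTR 2, NPM1 KD 1, NPM1 KD 2). Srsf6 is lowest at 65.4% to 66.8%, Srsf2 and Srsf9 are at 100%, and at Srsf11 both NPM1 KD points lie above both CTR points, with NPM1 KD 1 at 88.9%.

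Measured along the gene, all 10 members lay under a narrow peak at each 500 bp step from 500 to 6000 bp after the start, in every library. At 500 bp after the start, 74.0% to 79.5% of all genes tested did so. At the start itself, 7 to 9 members were covered against 38.4% to 50.2% of all genes, and at 10000 bp after it 8 members against 43.5% to 47.6%. Since most members are shorter than that, the later positions often lie in the next gene. By 22500 bp the members, at 2 or 3 of 10, had come down to the level of all genes (30.2% to 33.5%).

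**Figure D2:**
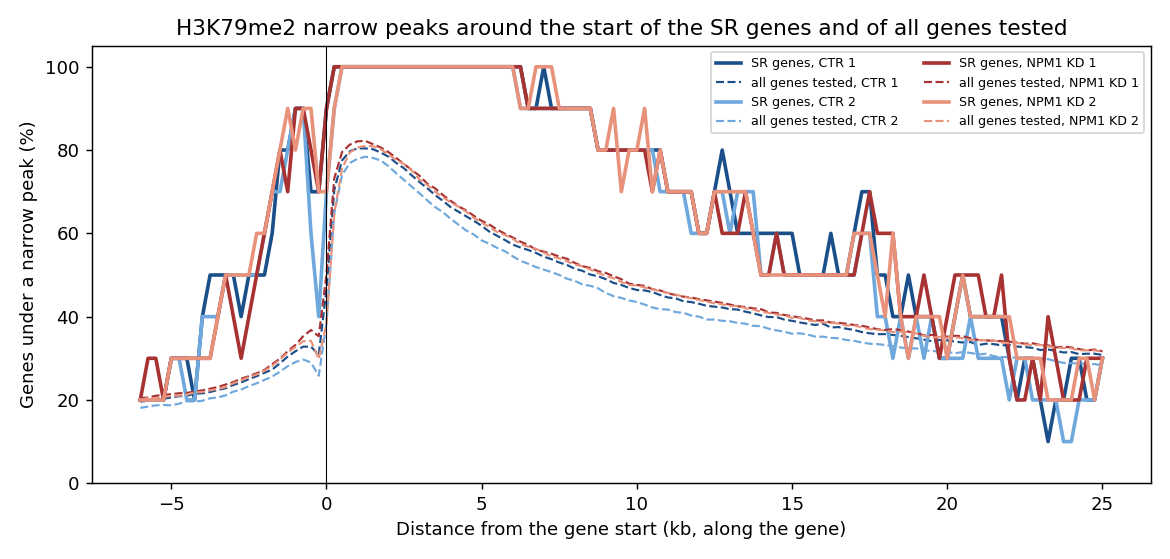
Percent of genes under a narrow H3K79me2 peak (y axis) by distance from the gene start in kb along the gene (x axis), for the 10 SR genes (solid lines) and all genes tested for covered length (dashed lines), 1 colour per library. The SR genes stay at 100% from 500 to 6000 bp, dip just upstream of the start, and meet the dashed lines near 20 kb.

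The broad peak at the start commonly ran on past the 3′ end of the gene. It ended beyond the annotated gene in all 4 libraries for 8 of the 10 members, compared with 13.9% of the 8622 genes with such a peak. For members and all genes alike, the peak lay over the start or began within 500 bp after it, as at Srsf1 in CTR 2 and NPM1 KD 2. Gene length moves with this share, which was 38.5% for genes of 3 to 7.5 kb, 13.7% for 7.5 to 15 kb and 7.37% for 15 to 30 kb. At Srsf2 the peak ended 15.6 and 15.3 kb past the gene in the control libraries and 15.7 and 15.8 kb past it in the knockdown libraries. At Srsf9 it ended 17.7 and 17.4 kb past the gene in the control libraries and 17.6 and 17.4 kb past it in the knockdown libraries. Both peaks ran through further genes, with the starts of Mettl23, Mfsd11 and Jmjd6 under the Srsf2 peak and those of Gatc, Triap1 and Cox6a1 under the Srsf9 peak in all 4 libraries. At Srsf10 (SRp38, which represses splicing when dephosphorylated) the peak also held the start of Pnrc2, and it ended 6.37 to 7.95 kb past the gene.

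At Srsf1, Srsf3 and Srsf6 no other protein-coding gene lay under the peak. Srsf3 (SRp20, the smallest family member) was overrun by 3.81 to 4.81 kb, Srsf1 (ASF/SF2) by 2.21 to 3.02 kb and Srsf6 (SRp55) by 0.542 to 2.27 kb. Srsf5 (SRp40) was overrun by 5.72 to 6.44 kb, which reached the far end of the opposite gene Slc10a1 and not its start. Srsf7 (9G8, which has a zinc knuckle) was overrun by 5.49 to 6.76 kb, and the only other coding gene under its peak was the divergent Ttc39d. The overrun of Srsf6 was 1.46 and 0.542 kb in CTR and 2.27 and 1.86 kb in NPM1 KD. The groups did not overlap there, and the control libraries differed from each other by more than the groups did at their nearest. The overrun was also longer in both knockdown libraries at Srsf1, Srsf2 and Srsf5, and shorter in both at Srsf3. Some margins were small. At Srsf1 it was 2227 bp in CTR 2 against 2256 bp in NPM1 KD 1, and at Srsf3 3934 bp in CTR 2 against 3907 bp in NPM1 KD 1. The share of all genes with either order was not computed, so these orders are not read as a result about the members.

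In the longest members the peak at the start did not reach the gene end in every library. The peak of Srsf4 (SRp75), a gene of 28.1 kb, reached 22.8 and 22.3 kb from the start in CTR and 28.5 and 22.1 kb in NPM1 KD, so only NPM1 KD 1 passed the gene end. Separate broad peaks followed farther along the gene in the other libraries. The peak of Srsf11 (p54), a gene of 26.2 kb, reached 19.2 and 18.5 kb in CTR and 21.9 and 19.2 kb in NPM1 KD. In the other direction it ran 11395 to 13122 bp upstream, over Lrrc40. Region lengths ranged from 6.19 kb (Srsf6, CTR 2) to 34.3 kb (Srsf11, NPM1 KD 1), and by median length the members stood between the 30.6 and the 83.9 percentile of the genes with such a region.

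**Figure D3:**
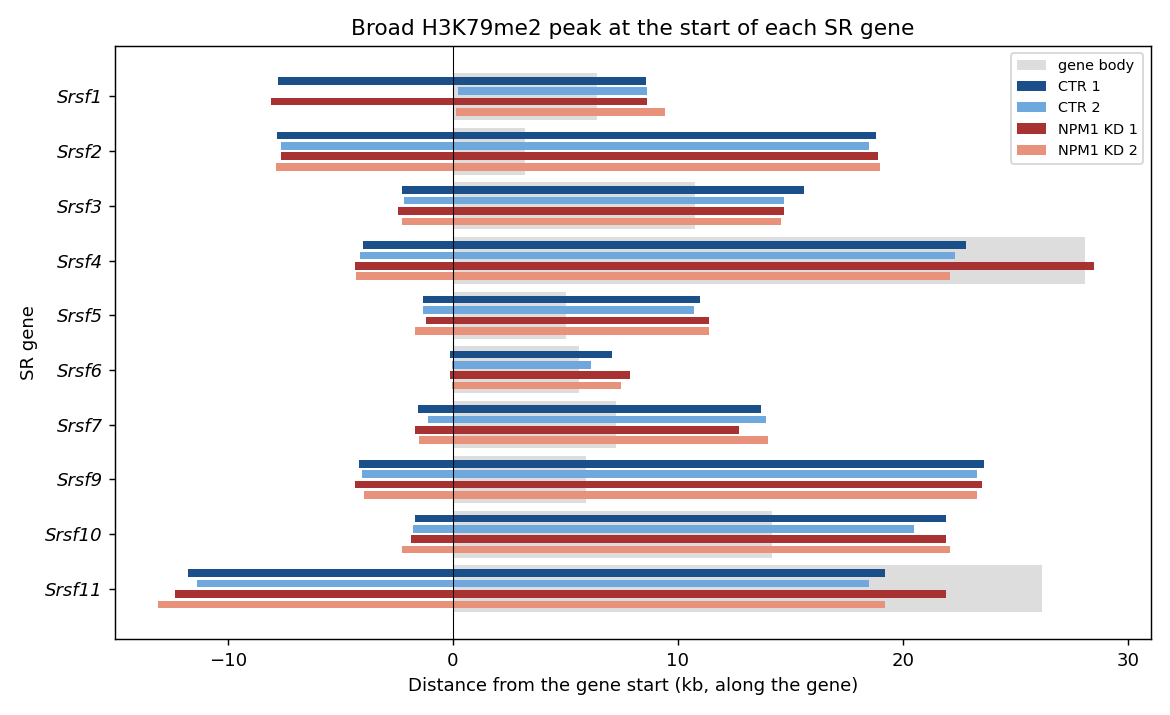
Extent of the broad H3K79me2 peak at the start of each SR gene, in kb from the gene start along the gene, with 1 bar per library over a grey bar for the gene body. The bars end past the gene in all libraries for 8 genes and short of it for Srsf11. At Srsf1 the peak begins after the start in CTR 2 and NPM1 KD 2.

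The upstream edge of the narrow peak in the gene lay close to the start at several members. At Srsf1 the narrow lists left a gap over the start in all 4 libraries, of 781 and 911 bp in the control libraries and of 253 and 564 bp in the knockdown libraries, with chr11:88047204-88047456 bare in each. The gap was shorter in both knockdown libraries than in both control libraries. The share of all genes with that order was not computed, so no group difference is drawn from it. Narrow peaks covered more of the gene window in both knockdown libraries in 43.7% of all genes. At Srsf5 a gap before the start was 254 and 542 bp long in CTR against 526 and 268 bp in NPM1 KD, and at Srsf7 it was 177 and 297 bp against 309 and 218 bp. At neither gene did the groups separate. A gap of at most 1000 bp within 500 bp of the start was present in all 4 libraries in 7.04% of the 11318 genes tested and in these 3 members.

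Gaps at Srsf2 (140 and 491 bp, both before the start) appeared in both control libraries and in no knockdown library. How often this was so among all genes was not computed, so it is not read as a difference between the groups. At Srsf3 a gap was seen in CTR 2 alone, at Srsf4 in NPM1 KD 2 alone, and at Srsf10 in 3 libraries (185 and 327 bp in the control libraries and 257 bp in NPM1 KD 2). A gap depends on where a peak caller splits a domain. At Srsf1 the broad lists joined both sides in CTR 1 and NPM1 KD 1 and split them in CTR 2 and NPM1 KD 2, so by that measure the groups overlapped. At Srsf5 and Srsf7 the broad peak covered the start in all 4 libraries. It ran 1180 to 1681 bp upstream of the start at Srsf5 and 1112 to 1670 bp at Srsf7.

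Srsf6 had nothing upstream. Its narrow peak began 99 and 47 bp before the start in the control libraries and 130 and 16 bp before it in the knockdown libraries, and the next narrow peak upstream ended 1.56 Mb away in each library. A start with at most 200 bp of narrow peak in the 3 kb upstream is common, at 41.0% of the 8611 genes covered at 1000 bp after the start.

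Where peaks flanked a gap, the upstream peak was lower than that in the gene. It was closest to it at Srsf4 in NPM1 KD 2, where the upstream fold of 10.5 was 48.9% of that in the gene, and at Srsf2, where it was 28.1% in CTR 1 and 40.8% in CTR 2. At Srsf1 the upstream peak, which lies over the opposite noncoding gene 2010015M23Rik, had a fold of 6.05 and 6.24 in CTR and of 7.01 and 7.67 in NPM1 KD. Both knockdown values lay above both control values there, but its summit is more than 3 kb from the Srsf1 start, so it was outside the window and was not tested. At Srsf5 the upstream fold was 2.87 and 2.78 in CTR and 3.5 and 2.97 in NPM1 KD. At Srsf7, over Ttc39d, it was 3.49 and 2.66 in CTR and 4.91 and 3.68 in NPM1 KD. These 2 genes were the members with a summit in the 3 kb upstream in all 4 libraries, and in both the knockdown values lay above the control values, which was so for 16.1% of the 2205 genes with such a summit. The log2 difference was 0.09 ± 0.155 (SE) at Srsf5 and 0.39 ± 0.203 (SE) at Srsf7, with limma adjusted p-values of 0.947 and 0.93, and 0.0% of the 2205 genes were called. This measure was added after the values had been seen.

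The summit, the point of highest pileup, lay inside the gene in every member and library. Of the 40 summits, 36 were in introns and 4 in exons (Srsf2 in CTR 1 and NPM1 KD 1, Srsf5 in CTR 1 and NPM1 KD 2). At Srsf6 it stood 744 and 751 bp after the start in the control libraries and 746 and 758 bp after it in the knockdown libraries, a spread of 14 bp. At Srsf3, in the same order, it stood 3523, 3498, 3500 and 3502 bp after the start, a spread of 25 bp. A spread of at most 25 bp was seen in 0.955% of the 10895 genes with a summit in all libraries, and the median spread was 599 bp. Srsf9 followed with 709, 731, 705 and 763 bp, so in these 3 genes the position of the peak was fixed to within 100 bp, against 12.2% of all genes.

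In other members the position of the summit varied between libraries. At Srsf10 it stood near 4 kb in 3 libraries (3909, 3946 and 3997 bp) and at 945 bp in NPM1 KD 1. At Srsf4 it stood at 3322, 1792, 921 and 5070 bp. At Srsf11 it stood 331 and 911 bp after the start in the control libraries and 5263 and 8719 bp after it in the knockdown libraries, so here the knockdown summits lay deeper in the gene than the control summits. In Srsf2 the summits were also closer to the start in CTR (507 and 701 bp) than in NPM1 KD (782 and 1121 bp), while in Srsf1 the order was the opposite (847 and 905 bp in CTR against 739 and 702 bp in NPM1 KD). Among all genes, both knockdown summits lay farther along the gene than both control summits in 15.2% and nearer in 14.0%, so the 2 members and 1 member with these orders were near the background.

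**Figure D4:**
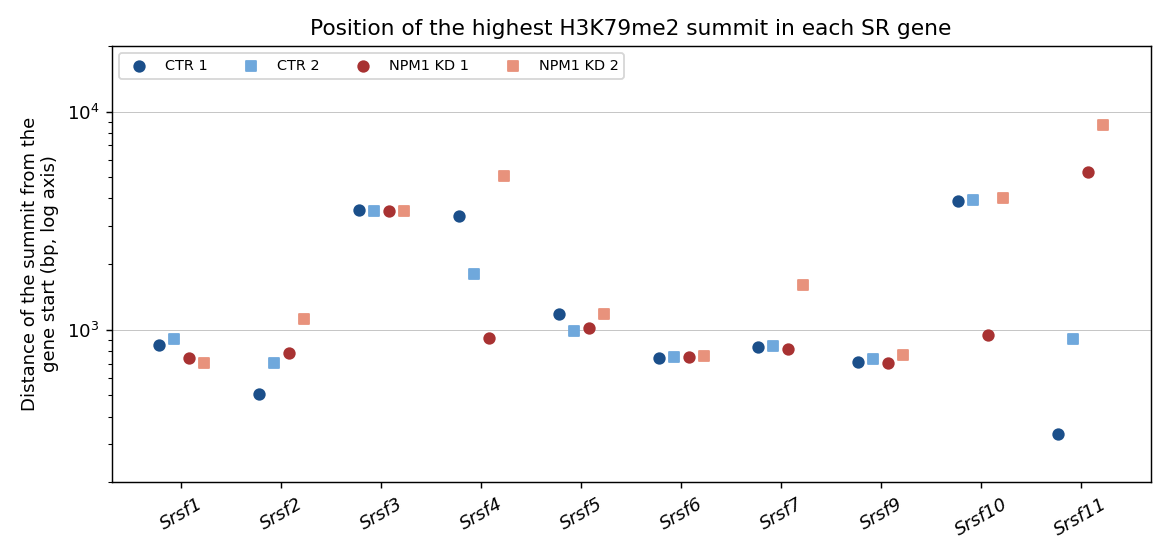
Distance of the highest narrow-peak summit from the gene start (bp, log axis) for each SR gene, 1 point per library. The points coincide at Srsf3, Srsf6 and Srsf9 and spread over 8388 bp at Srsf11, where both NPM1 KD points lie above both CTR points.

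The summit positions at Srsf11 also decided the score of its neighbour. Lrrc40 encodes a leucine-rich repeat protein and starts 23 bp from Srsf11. The shared peak had its summit within the Lrrc40 window in both control libraries and outside it in both knockdown libraries. Scored by summits in its own window, Lrrc40 therefore had a highest fold of 24.1 and 25.1 in CTR and 2.1 and 2.03 in NPM1 KD (log2 difference -3.47 ± 0.135, SE, limma adjusted p = 0.000385), the lowest difference of all genes. Scored by any peak overlapping the window, its values were those of the shared peak, 24.1, 25.1, 21.8 and 19.5, and the call was gone (log2 difference -0.11 ± 0.114, SE, limma adjusted p = 0.977).

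Exons found only in decay transcripts, which overlap no exon of a protein-coding transcript, numbered 9 in 5 members (Srsf3, Srsf4, Srsf7, Srsf9 and Srsf11). Each of the 9 lay wholly under narrow peaks in all 4 libraries. In Srsf3 the exon of 456 bp at chr17:29039454-29039909 lay 6826 bp after the start, between 3303 and 3328 bp from the summit. In Srsf7 the exon of 460 bp at chr17:80204622-80205081 lay 2226 bp after the start, and in Srsf9 that of 358 bp at chr5:115328347-115328704 lay 1170 bp after it, 407 to 465 bp from the summit. As most of each of these gene bodies lay under peaks, the exons were not set apart from their surroundings by peak calls.

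The extent of the mark was then compared between CTR and NPM1 KD. The covered length of the window was tested with limma on log2(covered bp + 1000) over 11318 genes, and 0 genes passed an adjusted p of 0.05 (0.0%), while 1918 genes and no member had an unadjusted p under 0.05. The smallest adjusted p was 0.181 over all genes and 0.447 over the members. The members differed by a median of 0.02 on the log2 scale, against 0.08 over all genes.

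Both knockdown libraries lay above both control libraries in 3 of 10 members, whereas 48.1% of all genes showed this order. No member had the opposite order, which was seen in 2.84% of all genes. The count was 5 with the narrow lists (43.7% of all genes), 6 without CTR 1 (74.9%) and 6 without NPM1 KD 2 (74.5%). Compared within same-numbered libraries, the knockdown value was higher in both pairs in 5 members (Srsf3, Srsf4, Srsf7, Srsf10 and Srsf11) and in 64.7% of all genes, a count added after the values had been seen. In the main comparison the 3 members were Srsf3, Srsf10 and Srsf11. Srsf11 was covered at 78.7% and 79.1% in CTR and at 88.9% and 81.0% in NPM1 KD, and its groups did not overlap. Its difference was the largest of the members, 0.10 ± 0.056 (SE) on the log2 scale, limma adjusted p = 0.447. Srsf10 was covered at 92.5% and 93.0% in CTR and at 93.4% and 95.7% in NPM1 KD. Srsf3 was covered at 94.5% and 94.0% in CTR and at 96.1% and 94.6% in NPM1 KD, so the groups nearly touched. Windows already covered at 100%, as in Srsf2 and Srsf9, could not gain. For single genes, an exact permutation test of 2 libraries against 2 cannot give a p under 0.333, so no member was called on its own values.

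The remaining members overlapped between the groups. Srsf4 was covered at 97.6% and 90.3% in CTR and at 100% and 96.3% in NPM1 KD. Srsf7 was covered at 85.8% and 81.5% in CTR and at 87.0% and 85.5% in NPM1 KD. Srsf5 was covered at 78.9% and 79% in CTR and at 77.3% and 83.5% in NPM1 KD, so its knockdown libraries lay on either side of the controls. Srsf1 was covered at 100% and 91.9% in CTR and at 100% and 94.2% in NPM1 KD, where the lower value of each group came from the library that split the domain at the start. Srsf6 stayed between 65.4% and 66.8% in all libraries.

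The height of the mark was measured as the highest narrow-peak fold, the ratio of summit pileup to the MACS2 background, with 1 point in the gene deciding the value. Every member summit stood at or above the 97.16 percentile of its own narrow list, which also holds many small peaks. The highest fold was 52.4 at Srsf10 in CTR 2 and the lowest 19.4 at Srsf6 in NPM1 KD 2. Among all genes with a summit in the window, the members stood between the 74.02 and the 99.3 percentile, with Srsf11 (74.02 to 80.89) and Srsf4 (76.9 to 82.21) lowest and Srsf10 (96.36 to 99.3) and Srsf9 (96.8 to 98.39) highest.

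Srsf10 had a fold of 49.6 and 52.4 in CTR and of 38.6 and 38.7 in NPM1 KD. The knockdown values were lower and the groups did not overlap, with means of 51.0 ± 1.98 (SD, n = 2) and 38.6 ± 0.0732 (SD, n = 2). Srsf9 had a fold of 49.4 and 46.5 in CTR and of 41.4 and 31.5 in NPM1 KD, again without overlap. Srsf1, which promotes the use of 5′ splice sites, had a fold of 41.9 and 35.4 in CTR and of 34.9 and 22.4 in NPM1 KD. Its summit pileups were 539 (95% exact Poisson interval 494 to 586) and 305 (272 to 341) in CTR, and 348 (312 to 387) and 285 (253 to 320) in NPM1 KD. These intervals cover counting error only, and pileups follow the depth of a library.

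Srsf7 had a fold of 36.6 and 32.1 in CTR and of 30.5 and 25 in NPM1 KD. Srsf3 had a fold of 33.1 and 36.9 in CTR and of 26.8 and 30.9 in NPM1 KD. Both knockdown values as deposited lay below both control values in these genes too, and likewise in Srsf4, Srsf5 and Srsf11. Srsf4 had a fold of 25.7 and 25.3 in CTR and of 23.1 and 21.4 in NPM1 KD. Srsf5 had 25.5 and 28.1 in CTR and 24.5 and 23.8 in NPM1 KD. Srsf11 had 24.1 and 25.1 in CTR and 21.8 and 19.5 in NPM1 KD, from summits at different positions.

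Srsf2 and Srsf6 overlapped between the groups. Srsf2 had a fold of 50.1 and 36.5 in CTR and of 43.3 and 26.7 in NPM1 KD. Srsf6 had a fold of 33.8 and 30.0 in CTR and of 31.4 and 19.4 in NPM1 KD. In both, NPM1 KD 1 stood between the control libraries and NPM1 KD 2 stood lowest. At Srsf2 in CTR 2 the MACS2 background was a local one, 9.73 in place of 7.65, which lowers the fold there. NPM1 KD 2 was the lowest library in 8 of 10 members, beside its lower median fold over all genes (12.1).

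**Figure D5:**
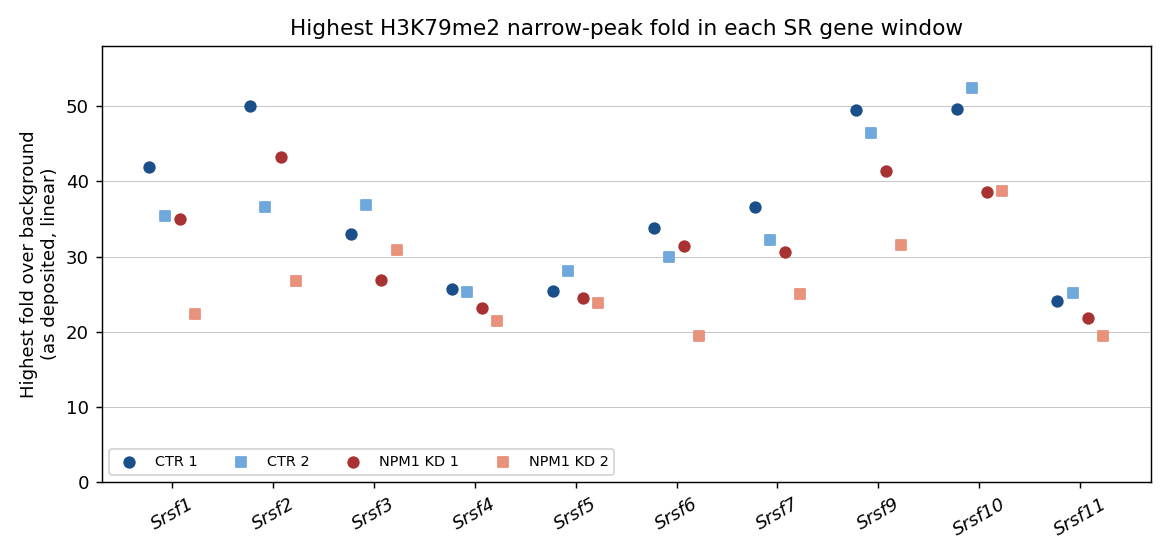
Highest narrow-peak fold over background in each SR gene window (linear axis from 0, as deposited), 1 point per library. Both NPM1 KD points lie below both CTR points in 8 of 10 genes before the libraries are scaled to each other, and NPM1 KD 2 is often the lowest.

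As deposited, both knockdown libraries lay below both control libraries in 8 of 10 members and in 27.2% of 10895 genes. After quantile normalization of the log2 fold over all genes, this order remained in 3 members (Srsf7, Srsf9 and Srsf11) and was seen in 15.9% of all genes. With a library left out the order is easier to meet. It then held in 6 members without CTR 2 (27.6% of all genes), in 6 without NPM1 KD 1 (34.8%) and in 6 without NPM1 KD 2 (36.2%). The opposite order was found in no member and in 17.2% of all genes, and without NPM1 KD 1 in 3 members and 39.4% of all genes. Compared within same-numbered libraries, the knockdown value was lower in both pairs in 10 of 10 members as deposited (43.3% of all genes) and in 7 after quantile normalization (26.5%), all but Srsf3, Srsf4 and Srsf5. This count was added after the values had been seen. The median log2 difference of the members went from -0.32 as deposited (all genes -0.08) to -0.26 with median centring (all genes -0.02) and -0.10 after quantile normalization (all genes 0.004).

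With limma on the quantile-normalized values, 12 of 10895 genes passed (0.11%), 6 higher and 6 lower in NPM1 KD, and no member was among them. The members' smallest adjusted p was 0.966, and no member had an unadjusted p under 0.05, as 461 genes did. The largest difference of a member was that of Srsf1, -0.25 ± 0.154 (SE), followed by Srsf6 with -0.19 ± 0.163 (SE). Srsf9 differed by -0.14 ± 0.118 (SE) and Srsf10 by -0.12 ± 0.165 (SE), and Srsf5 was the only member with a positive value, 0.04 ± 0.134 (SE).

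In 4 related gene groups no gene was called in either measure. Of 18 further SR family and SR-like factors, 17 were tested (not Srsf12). Their median log2 difference was 0.02 in covered length and -0.10 in highest fold, with 6 genes above in covered length (35.3%, against 48.1% of all genes) and 5 below in fold (29.4%, against 15.9% of all genes). The extremes were Sfswap and U2af1 in covered length. Sfswap, a regulator of splicing with an SR-like domain, was covered at 65.5% and 57.8% in CTR and at 75.5% and 66.8% in NPM1 KD (log2 difference 0.20 ± 0.103, SE, limma adjusted p = 0.421). U2af1, which recognises the 3′ splice site, differed by -0.03 ± 0.024 (SE). In fold, Sfswap was also the lowest, with 54.9 and 47.5 in CTR and 45.6 and 27.9 in NPM1 KD (log2 difference -0.26 ± 0.16, SE, limma adjusted p = 0.966), and Srrm1 the highest with 0.10 ± 0.138 (SE).

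Among the kinases, phosphatase and import factors that act on SR proteins, 9 of 11 were tested (not Dyrk1a and Srpk3), with medians of 0.05 in covered length and -0.02 in fold. The extremes in covered length were Clk2, a nuclear SR protein kinase, at 0.17 ± 0.074 (SE) and Ppp1ca, a catalytic subunit of protein phosphatase 1, at 0.003 ± 0.031 (SE). In fold they were Tnpo3, the import receptor of SR proteins, at 0.12 ± 0.132 (SE) and Ppp1ca at -0.12 ± 0.138 (SE). Of the hnRNP genes, whose products often oppose SR proteins at splice sites, 23 of 23 were tested. Their medians were 0.02 in covered length and -0.05 in fold, with Hnrnpa0 (0.09) and Hnrnpa3 (-0.08) as the extremes in covered length and Hnrnpm (0.11) and Hnrnpu (-0.24) in fold. Hnrnpa3 was covered at 80.4% and 79.2% in CTR and at 74.2% and 75.5% in NPM1 KD, without overlap (limma adjusted p = 0.26). It was the 1 gene of the 23 that lay below, against 2.84% of all genes, while 7 lay above, against 48.1% of all genes.

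The genes of nonsense-mediated decay and the exon junction complex, which act on the decay transcripts of the SR genes, had medians of 0.08 over 16 genes in covered length and 0.02 over 15 genes in fold (Etf1 had no summit in all libraries). Upf2, an adaptor of the surveillance complex, stood out in covered length with 39.6% and 31% in CTR and 50.4% and 50.1% in NPM1 KD (log2 difference 0.51 ± 0.143, SE, limma adjusted p = 0.277). Upf3b, which links that complex to exon junctions, was at the other end with 16.0% and 15.2% in CTR and 13.9% and 13.8% in NPM1 KD (-0.13 ± 0.04, SE, limma adjusted p = 0.303), and it was also the lowest in fold (-0.12). Its paralogue Upf3a was the highest in fold with 13.8 and 14.8 in CTR and 18.9 and 15.2 in NPM1 KD (0.33 ± 0.119, SE, limma adjusted p = 0.966). The groups did not overlap in these values of Upf2, Upf3b in covered length and Upf3a, and none passed the test. In covered length, 8 of the 16 genes lay above (48.1% of all genes) and 1 below (2.84%). In fold after quantile normalization, 4 of the 15 lay above (17.2% of all genes) and 0 below (15.9%).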

How the data were processed

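H3K79me2 ChIP-seq of N2a cells was represented by narrow and broad MACS2 peak lists of 2 CTR and 2 NPM1 KD libraries. Groups came from the labels. The pooled inputs had no peak list and were not used here. According to the submitters' processing notes, reads went through FastQC 0.11.9, Trimmomatic 0.38, Bowtie2 2.3.4.1 and SAMtools on mm10, peaks were called with MACS2 2.2.6, and ChIPseeker 1.28.3 and deepTools 3.3.2.0.0 were used. Peaks were called per library, and whether the input was the calling background was not given in the sources used here. The peak names of the broad lists mention a filtered alignment and those of the narrow lists do not. The deposited score is 10 times the −log10 q of a peak, cut to a whole number. The authors deposited the fold as the ratio of pileup to background (each plus 1), at the summit in narrow lists and averaged in broad lists, with −log10 p and −log10 q as MACS2 gave them.

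Peak lists hold no read totals, so depth was known only through the summit pileup and background recovered from fold and p, a step tested on simulated data. Covered length per window was tested with limma 3.58.1 (R 4.3.3, eBayes with trend) on log2(bp + 1000) over protein-coding genes with a mean of at least 500 bp. The highest fold with its summit in the window was tested on the log2 scale after quantile normalization, over genes with a summit in all 4 libraries. Benjamini-Hochberg adjusted p-values under 0.05 were called. The study itself tested read counts, which were not analysed here. Other steps used Python 3.11.15, numpy 2.4.6, pandas 2.3.3, scipy 1.17.1 and matplotlib 3.10.9. All members were named, and from each further gene list those past the threshold or, with none, the highest and lowest difference. Neighbours under the same broad peak were also named. The members and lists were chosen with earlier results of these data known. The methods tie each replicate to a passage and transfection batch, which was taken to pair same-numbered libraries, and their deviations from the group means had a correlation of 0.288 in covered length and 0.298 in fold. Coordinates count from 1.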

Additional observations from a re-analysis of the deposited data

How the results depend on the processing

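No member passed limma under any alternative run. With the replicate pairing as a block, 0 members were called in either measure. The counts of members by group order do not use the block, so they could not move. The 3 members with higher covered length in NPM1 KD became 5 with the narrow lists (Srsf1, Srsf2, Srsf3, Srsf10 and Srsf11), beside 43.7% of all genes. With the gene body alone the count was 1 (44.9% of all genes). It was 3 to 6 when a library was left out, with 6 without CTR 1 (74.9%) and 6 without NPM1 KD 2 (74.5%). The count below ranged from 0 to 1, with 1 without NPM1 KD 1 (14.7% of all genes) or NPM1 KD 2 (5.69%). The 3 members with lower fold became 7 with median centring (22.2% of all genes) and 8 as deposited (27.2%). With a library left out they became 4 without CTR 1 (28.7%), and 6 without CTR 2 (27.6%), NPM1 KD 1 (34.8%) or NPM1 KD 2 (36.2%). The count above was 1 with the broad lists (21.7% of all genes) and 1 within 3 kb of the start (7 members tested, 18.0% of all genes). It was 0 to 3 with a library left out (3 without NPM1 KD 1, 39.4% of all genes, and 1 without CTR 2, 30.1%). The median log2 difference in fold was -0.05 with the broad lists, -0.26 with median centring, -0.32 as deposited and -0.15 to -0.08 with a library left out. Signs of uncalled members also turned. In covered length Srsf5 was at -0.02 with the narrow lists and Srsf1 and Srsf5 ranged from -0.04 to 0.07 and from -0.03 to 0.07 with a library left out. In fold, the broad lists gave Srsf5 -0.04, Srsf9 0.09 and Srsf10 0.01. Srsf5 was at -0.08 with median centring and -0.15 as deposited. Srsf10 was at 1.51 within 3 kb of the start, where its summit near 4 kb is left out. With a library left out, the fold differences ranged from -0.28 to 0.13 in Srsf2, -0.32 to 0.21 in Srsf3, -0.11 to 0.05 in Srsf4, -0.07 to 0.16 in Srsf5, -0.41 to 0.04 in Srsf6 and -0.30 to 0.06 in Srsf10, with the highest values of Srsf3, Srsf4, Srsf5 and Srsf10 without NPM1 KD 1 and those of Srsf2 and Srsf6 without NPM1 KD 2. Scoring any overlapping peak, an alternative added after seeing the data, changed no count of members. Without read totals, neither measure sees a change of the mark that keeps peak extent and relative height.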
